A study of Bos taurus with 9 samples.

Results

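The 6 genes described here are those named in the bovine control probesets of an Affymetrix cattle array: actin, gapd, ef1a, Cyph, eIF-4E and GST. Each gene was read by 3 probesets, sets of short probes placed at the 3' end, the middle (M) and the 5' end of its transcript. The rule for a member is its probeset name, with no measured value, and it gave 18 of the 24128 probesets in the table. Cells were chromaffin cells, the catecholamine-secreting cells of the adrenal medulla, freed from bovine glands by enzyme digestion, enriched by differential plating and kept as primary cultures. Of the 9 arrays, 3 carried RNA from untreated cells, for which the labels give no vehicle. The second group of 3 arrays came from cells given 100 nM PACAP-38, a neuropeptide that stimulates chromaffin cells, for 6 h at 37 C. The last 3 arrays came from cells given 10 nM TNF-alpha, an inflammatory cytokine, for 6 h at 37 C. According to the design text the repeats within a group were technical, and separate cultures or animals are named nowhere. A p-value here thus reflects only array-to-array spread, possibly technical. The purity of the cultures was not checked against marker genes, because the files used here do not pair the other probesets with gene names.

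The 6 genes serve basic tasks that nearly every cell performs. The protein eIF-4E binds the cap at the start of a messenger RNA and brings it to the ribosome, and elongation factor 1 alpha (ef1a) delivers aminoacyl-tRNAs as the protein chain grows. Actin forms the filaments of the cytoskeleton, which in chromaffin cells also lie under the membrane where secretory granules fuse. Cyph, read here as cyclophilin, helps proteins fold by turning proline bonds. Glyceraldehyde-3-phosphate dehydrogenase (gapd) is an enzyme of glycolysis, and glutathione S-transferases (GST) couple glutathione to reactive compounds. The probeset names do not say which actin or which glutathione S-transferase was measured. Probesets at several positions of such transcripts are placed on the arrays to follow RNA quality and how completely RNA was copied during labelling. Several of the same genes are often used as constant references.

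All values are RMA log2 expression values, so that a difference of 1 is a 2-fold change. Array medians ranged from 6.65 to 6.72, and TNF array 3 stood apart from the other 8 arrays in its 3' to 5' readings, which are given with that measure. Changes were tested with limma across 24034 probesets, and a probeset was called at a Benjamini-Hochberg adjusted p under 0.05.

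**Figure D1:**
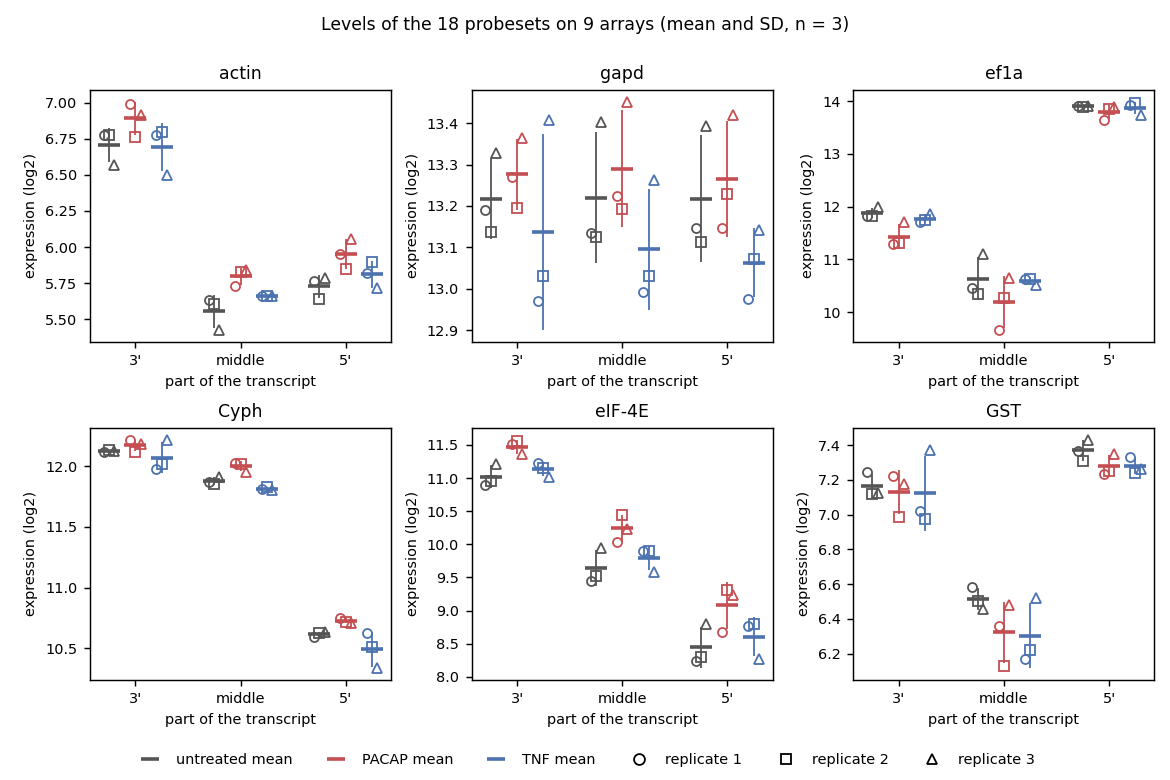
RMA log2 values of the 18 probesets, 1 panel per gene, with the 3', middle (M) and 5' probesets side by side. Points are single arrays, coloured by group, and bars are the group mean ± SD (n = 3). The eIF-4E points of the PACAP arrays lie above the untreated arrays at the 3' and middle probesets, and the ef1a 3' points of the PACAP arrays lie below them.

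With PACAP, 2 of 3 eIF-4E probesets were higher and 1 of 3 ef1a probesets was lower than in untreated cells, while no probeset of actin, gapd, Cyph or GST was called. The 3' and middle probesets of eIF-4E rose 1.37-fold and 1.51-fold, and the 3' probeset of ef1a was 1.36-fold lower. Thus 3 of 18 probesets (16.7%) were called, 2 higher and 1 lower. Over all probesets 14.5% were called in either direction, 5.96% higher and 8.50% lower, so the members' share of calls was close to that of the whole array. At an unadjusted p under 0.05 limma gave 6 of 18, against 26.6% of all probesets. The median change of the 18 was 0.06 log2, against 0.00 over all probesets, and the median size of the change regardless of sign was 0.15 against 0.14. The PACAP and untreated arrays did not overlap at 7 of the 18 probesets, against 31.0% of all probesets. RNA came from whole cultures, so that a change in RNA per cell and a change in the share of cells of 1 type cannot be told apart.

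For eIF-4E, the cap-binding initiation factor, the 3' probeset read 10.89, 10.96 and 11.21 in untreated arrays 1 to 3. It read 11.51, 11.56 and 11.36 in the PACAP arrays and 11.22, 11.16 and 11.02 in the TNF arrays. Every PACAP array lay above every untreated and every TNF array, and the closest approach was between PACAP array 3 and TNF array 1. The mean went from 11.02 ± 0.17 (SD, n = 3) in untreated to 11.48 ± 0.10 (SD, n = 3) in PACAP arrays, a change of 0.46 log2 (SE 0.10, 95% interval 0.22 to 0.69, limma adjusted p = 0.0202). At the middle probeset the values were 9.45, 9.53 and 9.95 in untreated, 10.04, 10.45 and 10.24 in PACAP, and 9.91, 9.89 and 9.58 in TNF arrays. Again no PACAP array overlapped either other group, although untreated array 3 was close to PACAP array 1. The middle probeset changed by 0.60 log2 with PACAP (SE 0.16, 95% interval 0.24 to 0.96, limma adjusted p = 0.0373). The 5' probeset read 8.23, 8.30 and 8.80 in untreated, 8.68, 9.32 and 9.24 in PACAP, and 8.77, 8.79 and 8.26 in TNF arrays. There the groups overlapped, since untreated array 3 exceeded PACAP array 1. The 5' difference was 0.63 log2 (SE 0.22, 95% interval 0.13 to 1.14) and was not called (limma adjusted p = 0.0997).

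Averaged over its 3 probesets, eIF-4E went from 9.70 ± 0.25 (SD, n = 3) in untreated to 10.26 ± 0.18 (SD, n = 3) in PACAP arrays. This mean rose 1.48-fold, by 0.56 log2 (SE 0.15, limma adjusted p = 0.0401), and eIF-4E was the 1 gene of 6 called from gene means, where 14.4% of the table was called. Each of the 3 same-numbered pairs of arrays was higher with PACAP at each of the 3 probesets, by 0.62, 0.60 and 0.15 log2 at the 3' end, 0.59, 0.92 and 0.29 in the middle and 0.44, 1.02 and 0.44 at the 5' end. The calls depended on single arrays. The 3' call was lost without untreated array 1 (limma adjusted p = 0.0881), untreated array 2 (0.0867), PACAP array 1 (0.0676) or PACAP array 2 (0.0776), and when arrays were centred on the 18 members (0.0506), within a range of 0.000851 to 0.0881 over 21 alternatives, while the change stayed between 0.37 and 0.61. The middle call was lost without untreated array 1 (limma adjusted p = 0.142), untreated array 2 (0.139), PACAP array 2 (0.129), PACAP array 3 (0.0750), TNF array 1 (0.0555) or TNF array 2 (0.0570), and when only the 6 arrays compared were fitted (0.0607), within a range of 0.00170 to 0.142.

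For ef1a, the elongation factor, the 3' probeset read 11.83, 11.82 and 11.99 in untreated arrays 1 to 3. It read 11.28, 11.31 and 11.71 in PACAP arrays and 11.71, 11.75 and 11.86 in TNF arrays. All 3 PACAP arrays were below all untreated arrays, but PACAP array 3 was as high as the lowest TNF array. The mean fell from 11.88 ± 0.10 (SD, n = 3) to 11.43 ± 0.24 (SD, n = 3), a change of -0.45 log2 (SE 0.12, 95% interval -0.72 to -0.18, limma adjusted p = 0.0381). At the middle probeset untreated arrays read 10.46, 10.34 and 11.11, PACAP arrays 9.66, 10.28 and 10.64, and TNF arrays 10.63, 10.63 and 10.51. This was the most variable member, with a range of 1.45 log2 over the 9 arrays and a residual SD of 0.375, larger than at 95.1% of all probesets. Its 3 pairs were lower with PACAP by 0.80, 0.07 and 0.47 log2, and the mean difference of -0.44 (SE 0.26, 95% interval -1.03 to 0.14) was not called (limma adjusted p = 0.332). The 5' probeset, near the top of the scale, read 13.91, 13.88 and 13.92 in untreated, 13.65, 13.86 and 13.89 in PACAP, and 13.92, 13.96 and 13.74 in TNF arrays. Its difference with PACAP was -0.10 log2 (SE 0.09) with overlapping groups (limma adjusted p = 0.542), so the 3 positions of ef1a gave differences of the same sign but unequal size.

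The mean of the 3 ef1a probesets differed by -0.33 log2 with PACAP (SE 0.14) and was not called (limma adjusted p = 0.168). Without PACAP array 1 this mean difference was -0.19 log2 and that of the middle probeset -0.18. Without untreated array 3 the 2 values were -0.23 and -0.21. The mean was called without PACAP array 3 (limma adjusted p = 0.0424), with arrays centred on the 18 members (0.0297) and in replicates 1 and 2 alone (0.0318), within a range of 0.0297 to 0.417. The call at the 3' probeset was lost without any 1 of the untreated arrays (limma adjusted p = 0.0945, 0.0936 and 0.0931 without arrays 1, 2 and 3), PACAP array 1 (0.124), PACAP array 2 (0.131), TNF array 1 (0.0590) or TNF array 2 (0.0617). It was also lost when array medians were subtracted (limma adjusted p = 0.0655) and when only the 6 arrays compared were fitted (0.0748). Over 21 alternatives its limma adjusted p lay between 0.00134 and 0.131.

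The difference between eIF-4E and ef1a on the same array is free of a constant shift between arrays. Adjustments that depend on signal level, as when array distributions are equalised, need not cancel in it. This pair was chosen after its values were seen. Because probes differ in brightness, only the change of the difference between groups has a meaning, not its level. The eIF-4E mean minus the ef1a mean was -2.54, -2.42 and -2.35 log2 in untreated arrays 1 to 3, -1.45, -1.37 and -1.80 in PACAP arrays, and -2.12, -2.17 and -2.42 in TNF arrays. All 3 PACAP arrays were above the other 6, and TNF overlapped untreated. The PACAP mean was 0.89 log2 above the untreated mean and 0.69 above the TNF mean. No test is given for this pair, since it joins the genes with the most raised and the most lowered means.

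**Figure D2:**
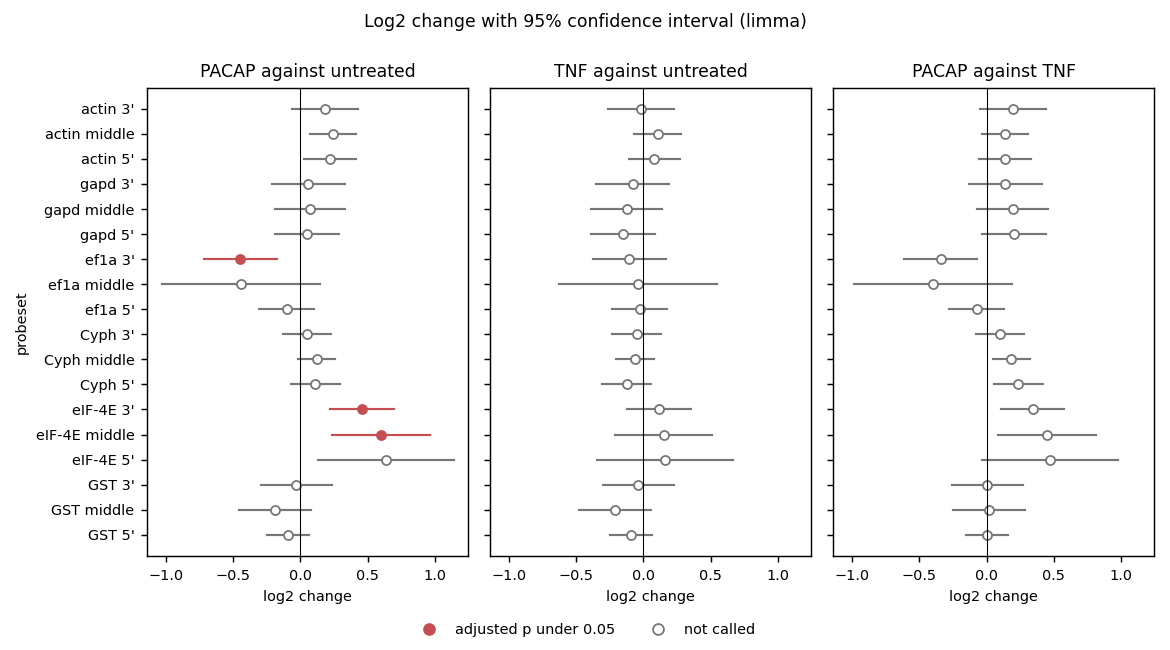
Log2 change of each of the 18 probesets in the 3 comparisons, with 95% confidence intervals from limma (n = 3 arrays per group). Filled points passed an adjusted p under 0.05, which 3 probesets did with PACAP against untreated and none did with TNF against untreated or with PACAP against TNF.

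Among the structural and metabolic genes, actin came closest to a call. Its 3', middle and 5' probesets had higher means than only 50.9%, 36.6% and 38.6% of probesets. The middle actin probeset read 5.63, 5.61 and 5.43 in untreated, 5.73, 5.83 and 5.84 in PACAP, and 5.66 on every TNF array. Neither treated group overlapped untreated. The difference with PACAP was 0.24 log2 (SE 0.08, 95% interval 0.07 to 0.41) and missed the threshold (limma adjusted p = 0.0693). After subtraction of array medians it was 0.29 log2 and passed (limma adjusted p = 0.0347, range over 21 alternatives 0.0347 to 0.386). The TNF arrays, with an SD of 0 here, entered the pooled spread behind the SE of 0.08. Fitted on only the 6 arrays compared, the difference had an SE of 0.083 (limma adjusted p = 0.117). At the 5' probeset the values were 5.76, 5.64 and 5.79 in untreated, 5.95, 5.85 and 6.05 in PACAP, and 5.82, 5.90 and 5.72 in TNF arrays, a difference of 0.22 log2 with PACAP (SE 0.08, limma adjusted p = 0.129). At the 3' probeset the untreated values of 6.78, 6.78 and 6.57 overlapped the PACAP values of 6.99, 6.76 and 6.92 (difference 0.18, SE 0.11, limma adjusted p = 0.337). The mean of the 3 actin probesets differed by 0.22 log2 with PACAP (SE 0.08, limma adjusted p = 0.0966), and by 0.26 with a call after subtraction of array medians (limma adjusted p = 0.0413). The identical TNF readings are a feature of the deposited values: 353 of all probesets (1.47%), among them this 1 member, have the same value on all 3 arrays of a group. Counting any 3 of the 9 arrays or more, 3498 probesets (14.6%) share a value, 2 of them members.

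Cyclophilin had the steadiest readings of the 6 genes within groups at its middle probeset, with a residual SD of 0.0298 log2, smaller than at all but 0.508% of probesets. That probeset read 11.87, 11.86 and 11.91 in untreated, 12.03, 12.02 and 11.95 in PACAP, and 11.81, 11.83 and 11.81 in TNF arrays. The 3 groups did not overlap, with PACAP highest and TNF lowest, but no difference was called. PACAP was 0.12 log2 above untreated (SE 0.06, limma adjusted p = 0.257), since limma draws so small a spread towards that of other probesets. The 5' probeset read 10.59, 10.62 and 10.63 in untreated, 10.75, 10.72 and 10.71 in PACAP, and 10.62, 10.51 and 10.34 in TNF arrays, so PACAP arrays were again above both other groups without a call. The 3' probeset gave overlapping values, from 12.12 to 12.13 in untreated, 12.12 to 12.21 in PACAP and 11.97 to 12.22 in TNF arrays.

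The glycolytic enzyme gapd gave no call at any of its 3 probesets, and its arrays overlapped between PACAP and untreated at all of them. Each of these probesets had a higher mean than 99.6% of probesets, near the top of the scale. Whether changes are compressed there was not tested. Its 3' probeset read 13.19, 13.14 and 13.33 in untreated, 13.27, 13.19 and 13.36 in PACAP, and 12.97, 13.03 and 13.41 in TNF arrays. The array numbered 3 was the highest in all 3 groups at this position, and likewise at the middle and 5' positions. Differences with PACAP were 0.06, 0.07 and 0.05 log2 at the 3', middle and 5' probesets, and the 95% intervals together ran from -0.21 to 0.33.

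Probesets of GST were also without a call. The 3' probeset read 7.24, 7.12 and 7.13 in untreated, 7.23, 6.99 and 7.18 in PACAP, and 7.02, 6.98 and 7.37 in TNF arrays. The middle probeset read 6.58, 6.50 and 6.46 in untreated, 6.36, 6.13 and 6.48 in PACAP, and 6.17, 6.22 and 6.52 in TNF arrays, where the array numbered 3 was the highest of each treated group but the lowest of the untreated group. The 5' probeset kept between 7.24 and 7.43 on the 9 arrays, a range of 0.197 log2 that was smaller than at all but 4.61% of probesets. Differences with PACAP were -0.03, -0.19 and -0.09 log2 at the 3', middle and 5' probesets (limma adjusted p = 0.906, 0.361 and 0.480).

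Across the 18 probesets the median range over the 9 arrays was 0.44 log2, against 0.50 over all probesets, and 13 of the 18 were below the latter. The median residual SD within groups was 0.132 log2 against 0.135 over all, and 9 of 18 were below it. The members thus varied within groups about as much as other probesets. The range of eIF-4E was wider than that of 68.4%, 86.0% and 88.6% of probesets at its 3', middle and 5' positions.

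With TNF no member passed the test. Differences ran from -0.21 log2 at the GST middle probeset to 0.16 at the eIF-4E 5' probeset, and limma adjusted p-values from 0.566 to 0.982. Called were 0 of 18 probesets, where 1.91% of all probesets were, and 0 of 6 gene means, where also 1.91% of the table was; at an unadjusted p under 0.05 limma gave 0 of 18, against 12.2% of all probesets. The largest fold inside any of the 18 95% intervals was 1.59. TNF and untreated arrays did not overlap at 2 of 18 probesets, the middle ones of actin and Cyph, against 15.9% of all probesets. The median change was -0.05 log2 over the members and -0.01 over all probesets. With array quality weights the GST middle probeset was called at -0.32 log2 (limma adjusted p = 0.0262).

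For eIF-4E the TNF arrays split by number. Same-numbered differences from untreated were 0.33, 0.20 and -0.19 log2 at the 3' probeset, 0.45, 0.37 and -0.37 in the middle, and 0.53, 0.50 and -0.54 at the 5' end. Pairs 1 and 2 were higher with TNF and pair 3 lower, at all 3 positions. Untreated array 3 was the highest of its group and TNF array 3 the lowest of its group at each position. Within replicates 1 and 2 alone, a split chosen after seeing these values, the 3 differences were 0.27, 0.41 and 0.51 log2 and were not called (limma adjusted p = 0.0617, 0.0836 and 0.117). The ef1a middle probeset showed the same division, with pair differences of 0.17, 0.29 and -0.59, as did the 5' probesets of ef1a and actin. The 3' probesets of gapd, Cyph and GST and the middle probeset of GST divided the other way. The ef1a 3' probeset was lower in all 3 pairs. Of 231 probesets called higher by at least 2-fold with TNF in replicates 1 and 2, 224 were also higher in pair 3, where their median change was 0.91 log2 against 1.40 in replicates 1 and 2. Of 39 called lower, 34 were lower in pair 3, with medians of -0.53 against -1.12 log2. The matching numbers for PACAP were 415 of 420 higher, with medians of 0.90 against 1.33 log2, and 378 of 380 lower, with medians of -0.73 against -1.17 log2. All these probesets were picked for large changes in replicates 1 and 2, which by itself enlarges their medians there. The medians thus cannot show whether pair 3 responded less.

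**Figure D3:**
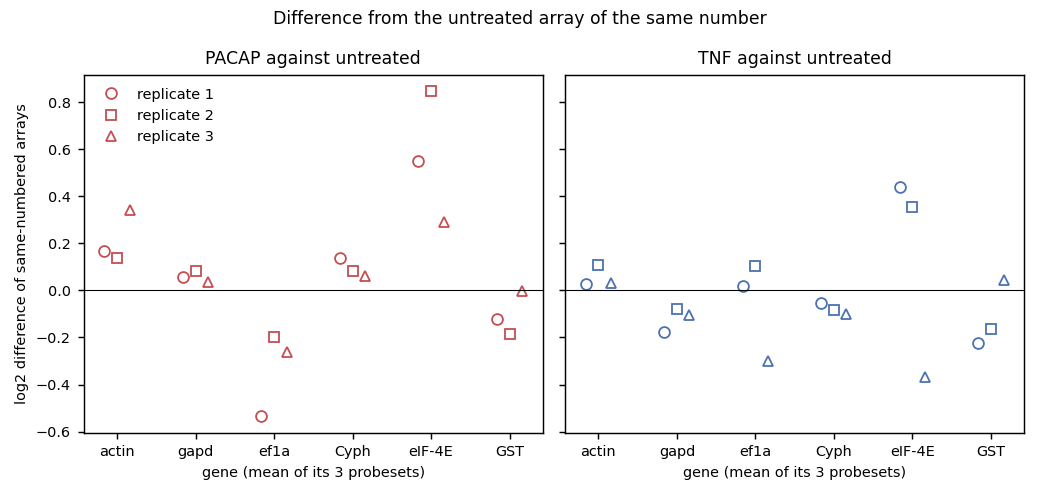
Difference in log2 value between same-numbered treated and untreated arrays for the mean of the 3 probesets of each gene, with PACAP and with TNF. Each symbol is 1 pair, and its shape gives the replicate number. The 3 eIF-4E pairs are above 0 with PACAP, whereas with TNF pairs 1 and 2 are above 0 and pair 3 is below.

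Over the 18 probesets, 13 had the same sign in all 3 pairs with PACAP, against 52.7% of all probesets. With TNF 6 of 18 did, against 35.4% of all probesets.

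Set directly against each other, PACAP and TNF differed at none of the 18 probesets by the test, although the doses differed as well as the agents. By limma 0 of 18 were called, where 9.06% of all probesets were, and 5 of 18 had an unadjusted p under 0.05, where 21.3% of all probesets did. Of the gene means 0 of 6 were called, where 9.09% of the table was, and 2 of 6 had an unadjusted p under 0.05, where 21.3% of the table did. The eIF-4E probesets were higher with PACAP by 0.34, 0.45 and 0.47 log2 at the 3', middle and 5' positions (limma adjusted p = 0.0820, 0.132 and 0.272). The 3' probeset was called with array weights (limma adjusted p = 0.0236), without untreated array 3 (0.0437) and in replicates 1 and 2 alone (0.0146), within a range of 0.0146 to 0.249 over 21 alternatives. The ef1a 3' probeset differed by -0.34 log2 (limma adjusted p = 0.128), and it was called when the replicate number was fitted as a block (limma adjusted p = 0.0273). It was also called with array weights (limma adjusted p = 0.0190), centred on the 18 members (0.0176), without PACAP array 3 (0.0132) and in replicates 1 and 2 alone (0.00429), within a range of 0.00429 to 0.343. The middle and 5' probesets of Cyph were 0.19 and 0.24 log2 higher with PACAP (limma adjusted p = 0.106 and 0.12). The GST probesets differed by 0.01, 0.02 and 0.00 log2. Arrays of the 2 treatments did not overlap at 6 of 18 probesets, against 23.2% of all probesets. Of the differences 15 of 18 were positive, and 5 of 6 by gene mean, since probesets of 1 gene are not independent. The median difference was 0.14 log2 over the members and 0.01 over all probesets. Largest among the folds inside the 95% intervals was 1.98, and it was 2.20 for PACAP against untreated.

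The difference between the 3' and the 5' probeset of a gene depends in part on how far copying reached along the transcript. It also depends on the fixed brightness of the probes, so only its change between groups was compared. Whether RNA quality or copying moved it was not tested. For ef1a it was -2.02 ± 0.09 log2 in untreated, -2.37 ± 0.19 in PACAP and -2.10 ± 0.19 in TNF arrays (SD, n = 3). PACAP and untreated did not overlap, which in an exact two-sided permutation test of 3 against 3 gives p = 0.1, the smallest it allows (adjusted p = 0.9 over 18 tests). For Cyph it was 1.51 ± 0.02 in untreated and 1.45 ± 0.04 in PACAP arrays without overlap, and 1.58 ± 0.27 in TNF arrays (SD, n = 3). The other 16 of 18 tests had overlapping groups. For eIF-4E the difference was 2.58 ± 0.14 in untreated, 2.40 ± 0.38 in PACAP and 2.53 ± 0.21 in TNF arrays (SD, n = 3), with overlapping groups. Between the 3' and the middle probeset 3 of 18 tests had no overlap (exact two-sided permutation p = 0.1 each, adjusted p = 0.6). These were GST, at 0.65 log2 in untreated, 0.81 in PACAP and 0.82 in TNF arrays, where both treated groups were above untreated, and actin, at 1.15 in untreated and 1.03 in TNF arrays.

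**Figure D4:**
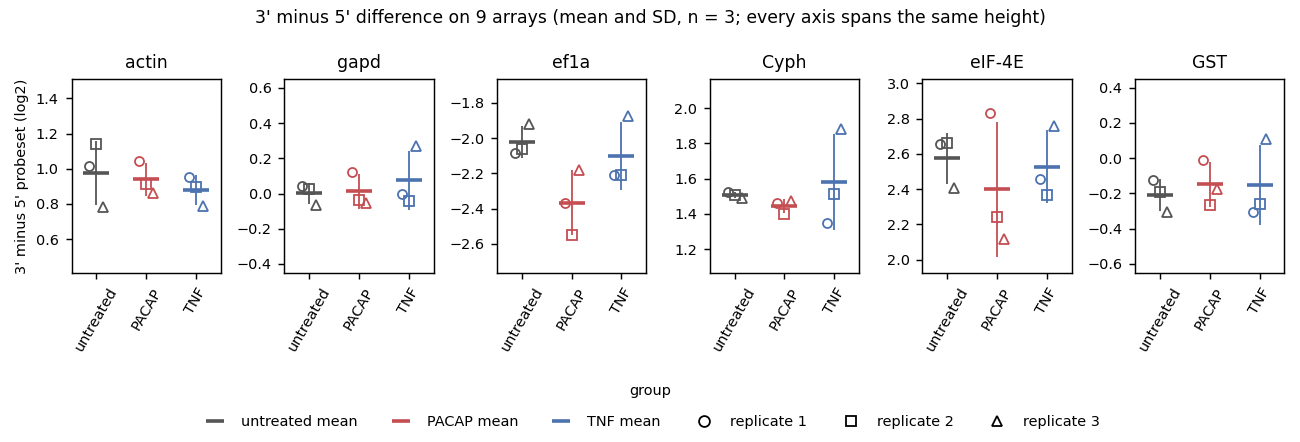
Difference between the 3' and the 5' probeset of each gene (log2) on every array, by group, 1 panel per gene with axes of equal height. Points are arrays, and bars are the group mean ± SD (n = 3). TNF array 3 is the highest of its group for gapd, ef1a, Cyph, eIF-4E and GST.

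TNF array 3 stood apart in this measure. Averaged over the 6 genes its 3' minus 5' difference was 0.65 log2, against 0.28 to 0.51 on the other 8 arrays. On the bacterial control transcripts added to the RNA, 4 in number, the same mean was 1.31, against 0.75 to 0.98 on the other arrays. This array is also the one on which the eIF-4E pair with TNF changed sign, and its part in that result was not tested. Without it the eIF-4E differences with TNF were 0.17, 0.26 and 0.33 log2 at the 3', middle and 5' probesets, none of them called (limma adjusted p = 0.572, 0.560 and 0.575). The members called then numbered 3 with PACAP, 0 with TNF and 0 for PACAP against TNF, as with all 9 arrays. The share of all probesets called is not given for that fit.

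Because several of these genes are widely used as references, each array was also centred on each gene in turn and the whole table tested again. Centring subtracts the change of the reference from every probeset, so all changes move against it. The array-to-array spread of the reference also enters the fit, so the counts of calls need not follow that change in size or direction. The counts are no further evidence of it. Without centring, limma called 3475 probesets with PACAP, 1432 higher and 2043 lower. Centring on gapd left 2223, of which 841 were higher. Centring on eIF-4E moved the median probeset by -0.56 log2 and gave 15323 calls, 262 higher and 15061 lower. Centring on ef1a moved it by 0.33 log2 the other way and gave 2602 higher and 210 lower. The share of calls that were higher ran from 1.71% with eIF-4E to 92.5% with ef1a, against 41.2% without centring. It was 10.3% with actin, 37.8% with gapd, 24.9% with Cyph, 65.2% with GST and 28.0% with the mean of all 18 probesets. In the TNF comparison 458 probesets were called without centring, 320 higher and 138 lower. Centring on gapd gave 293 higher and 11 lower, and on eIF-4E 146 higher and 44 lower. With eIF-4E the share called higher was 76.8%, against 69.9% without centring, although the eIF-4E mean was itself 0.14 log2 higher, without a call.

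**Figure D5:**
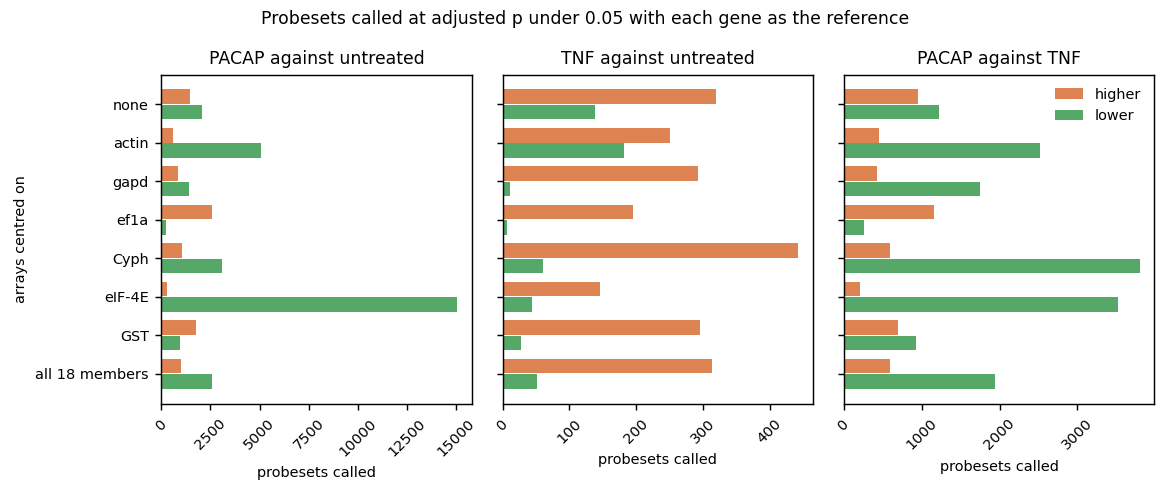
Number of probesets called higher (orange bars) and lower (green bars) at an adjusted p under 0.05 in the 3 comparisons, each panel with its own scale from 0, when the arrays were left as deposited (none) or centred on each gene or on all 18 probesets. With PACAP, centring on eIF-4E gave 15061 lower calls and centring on ef1a gave 2602 higher calls.

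Relative to each of the other 5 genes, eIF-4E was higher with PACAP, by 0.35 log2 against actin (limma adjusted p = 0.147), 0.47 against Cyph (0.0685), 0.50 against gapd (0.119), 0.67 against GST (0.0609) and, as given before, 0.89 against ef1a. Relative to each of the other 5 genes ef1a was lower with PACAP, by 0.23 to 0.89 log2. Because eIF-4E had the most raised and ef1a the most lowered mean, these signs were fixed and are no further evidence. Against actin the ef1a difference was -0.55 (limma adjusted p = 0.0253), a reference with which 21.1% of the table was called lower. Actin itself was 0.22 log2 higher with PACAP. The ef1a difference was not called against Cyph (-0.42, limma adjusted p = 0.0795), gapd (-0.39, 0.101) or GST (-0.23, 0.379).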

How the data were processed

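The authors deposited 1 table of log2 expression values; per the submitters' processing notes it was made with Affymetrix Expression Console and RMA, which corrects background, equalises array distributions and summarises probes. Software versions: not given in the sources used here. Each labelling took 5 ug of RNA, per the labels' protocols. RMA is known to compress folds at the low end of its scale, which was not tested here, and the number of arrays limits the precision.

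Groups and replicate numbers came from sample titles. Of 112 control probesets, 94 were left out, and 24034 were fitted on all 9 arrays with group means (limma 3.58.1, R 4.3.3, 6 residual degrees of freedom, Benjamini-Hochberg adjustment over all). Gene means of 3 probesets were fitted in a table of 24022. The code was tested on simulated data. All 18 members are accounted for; no filter was applied to them. Probeset names define the members, but this set of genes and the lists were picked with earlier results of these data known. Lists of related genes, genes of similar pattern and cell markers were not used, because no table here pairs probesets with gene names; no sequence was used. The series' Agilent arrays were not analysed here.

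Deviations of same-numbered arrays from their group means correlated at 0.23 to 0.65 in 9 of 9 pairs, all above the threshold of 0.1 set for a fit with the number as a block; arrays of different number correlated at -0.66 to 0.61, negatively wherever array 3 met array 1 or 2. The values thus set arrays 3 apart from arrays 1 and 2 more than number from number, and no label says what a number shares. The reported tests are unpaired, and the block is an alternative. Alternatives were a filter at a mean of 5, all controls kept, 3 other normalizations, an intensity trend, array weights, the 6 arrays compared, a replicate block, a threshold of 0.01, each array left out, centring on the 18 members and, chosen after seeing the data, replicates 1 and 2 alone.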

Additional observations from a re-analysis of the deposited data

How the results depend on the processing

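Over the 3 comparisons and 21 alternatives, 642 of 1134 single-probeset values differed from the reported estimate, most others being alternatives that cannot move it; 592 of the 642 kept their direction, 24 calls were lost and 16 gained. The 3 probesets called with PACAP kept their direction in the 12 alternatives that moved their estimate. With PACAP the members called, 3 as reported, numbered 4 with array weights, 4 with replicates 1 and 2 alone and 2 after centring on the 18 members. They numbered 1 when only the 6 arrays compared were fitted, 0 at an adjusted p under 0.01 and 0 to 3 when single arrays were left out. Gene means called with PACAP, 1 as reported, numbered 2 after subtracting array medians, 2 after centring on the 18 members, 2 with replicates 1 and 2 alone, 0 with the 6 arrays, 0 at an adjusted p under 0.01, and 0 to 1 when arrays were left out. With TNF, array weights called 1 member. For PACAP against TNF the members called, 0 as reported, numbered 3 with array weights, 1 with the replicate block, 1 after centring on the 18 members, 3 with replicates 1 and 2 alone and 0 to 1 when arrays were left out, and the gene means 1 with replicates 1 and 2 alone. The replicate block changed no other member's call: it kept 3 with PACAP (limma adjusted p = 0.0065, 0.0209 and 0.0283) and 0 with TNF. The share of all probesets called is not given for most of these alternatives, so the changed counts are no result about the members. Of the 3' minus 5' tests, 2 had no overlap, 2 to 4 when arrays were left out, of the middle minus 5' tests 0 and of the 3' minus middle tests 3. Calls in the whole table moved beyond 1.5 times when centred on a gene: with PACAP to 5642 (actin), 2223 (gapd) and 15323 (eIF-4E), with TNF to 304 (gapd), 203 (ef1a) and 190 (eIF-4E), and for PACAP against TNF to 1424 (ef1a), 4391 (Cyph) and 3721 (eIF-4E). Centring by itself shifts all changes and brings in the spread of the reference, as said above. The cause of the moves was otherwise not tested, and leaving arrays out also makes their number smaller. The eIF-4E 5' probeset was called with PACAP without untreated array 3 (limma adjusted p = 0.0426), without PACAP array 1 (0.0491), with array weights (0.00721) and with replicates 1 and 2 alone (0.0196). The eIF-4E gene mean was lost without untreated array 1 (limma adjusted p = 0.15), untreated array 2 (0.147), PACAP array 2 (0.138), PACAP array 3 (0.0839), TNF array 1 (0.0582) or TNF array 2 (0.0601). Detection above background was not measured in the files.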
